A study of Rattus norvegicus with 36 samples.

Results

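Fibrillar collagens and the lysyl oxidases that cross-link them were followed by RNA sequencing through 1 cycle of differentiation and dedifferentiation of iAM-1 cells, a conditionally immortalised line of atrial muscle cells from newborn Wistar rats. The genes were taken by name: Col1a1, Col1a2, Col3a1, Col5a1, Col5a2, Col12a1, Lox and Loxl1, 8 genes. Of these, 7 were among the 12948 rows of the expression table (12943 of them rat genes), and all 7 passed the filter on low values. Col1a2 was not analysed here. Col12a1 encodes a chain that binds to the surface of fibrils and is not itself a fibrillar collagen, so the name of the group fits it only loosely.

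All groups were the same cell line in the same medium. D0 cells had been proliferating with 100 ng/ml doxycycline. D1, D2, D3 and D9 cells had been differentiating without doxycycline for that number of days. D10, D11, D12 and D18 cells came from the following dedifferentiation, with doxycycline back at 100 ng/ml. Each of the 9 days had 4 libraries, 36 in all. Whether those 4 were grown as separate cultures is not stated in the labels, and the p-values below rest on a spread between libraries that may be technical alone. The data come from 1 immortalised line grown without other heart cells added, as far as the labels say, and so limit what can be read for a heart.

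Fibrillar collagens are made as procollagen chains that are hydroxylated and folded into a triple helix in the endoplasmic reticulum, exported, trimmed by proteases outside the cell and assembled into fibrils. Type I collagen carries most of the tensile strength of the heart's matrix, type III gives finer fibrils, and type V starts fibrils and limits their width. Lysyl oxidases oxidise lysines in collagen and elastin so that the chains can be cross-linked. In the heart, cardiac fibroblasts are the best known source of these proteins, and they rise in fibrosis.

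Levels are given in CPM, reads per 1e+06 after the authors' scaling of library size, and in TPM, which also corrects for transcript length, where genes are compared with each other. The values of a library were, up to rounding, whole multiples of a smallest value of 0.0105 to 0.0361 CPM, here called a unit. Libraries summed to 29.7 to 86.2 M units (M, 1e+06, median 36.9 M). Low values of the members were odd numbers of units, so a read was more than 1 unit and libraries held fewer reads than units. The label of atrial muscle cells was checked against its markers. All 10 were listed, and their summed level was 12540 to 13694 CPM at D0, 85728 to 93789 CPM at D9 and 19825 to 24392 CPM at D18. Of 14 fibroblast markers, 8 were listed. Their summed level was 1330 to 1353 CPM at D0, 589 to 635 CPM at D9 and 472 to 517 CPM at D18, and most of it came from Vim, an intermediate filament gene that many cell types express. The fibroblast markers Pdgfra and Postn stayed at or below 1.40 and 1.22 CPM in every library. In bulk RNA, fewer cells of a type and less RNA per cell cannot be told apart. D10 replicate 1 and D12 replicate 1 stood farthest from the other libraries of their days (a root mean square deviation from the day's median of log2 0.421 and 0.462), and results that rest on them are given with and without them.

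In proliferating cells the most abundant member per length was Lox, at 502 ± 25.8 TPM (SD, n = 4), followed by Col5a1 at 457 ± 97.8 TPM. Their ranges overlapped. Col12a1 stood at 189 ± 10.1 TPM and Col1a1 at 102 ± 3.17 TPM, with no overlap between these or with the first pair. Col3a1 (9.57 ± 0.902 TPM), Loxl1 (5.15 ± 0.318 TPM) and Col5a2 (4.22 ± 0.518 TPM) were far lower. The 2 chains of type V collagen, Col5a1 and Col5a2, were thus at very different levels per length in every D0 library. The 7 members summed to 1269 ± 73.6 TPM at D0, 1352 ± 5.22 TPM at D1, 960 ± 46.1 TPM at D2, 638 ± 14.3 TPM at D3 and 191 ± 4.22 TPM at D9. After doxycycline returned, the sum was 233 ± 41.2 TPM at D10, 226 ± 61.2 TPM at D11, 363 ± 87.8 TPM at D12 and 197 ± 16.0 TPM at D18. The sum at the end of the cycle therefore lay near that of differentiated cells and far below that of the proliferating cells the cycle began with. What made up the sum differed: Lox was 39.6% of it at D0 and 15.2% at D18, while Col5a1 was 36.0% at D0 and 64.7% at D18.

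**Figure D1:**
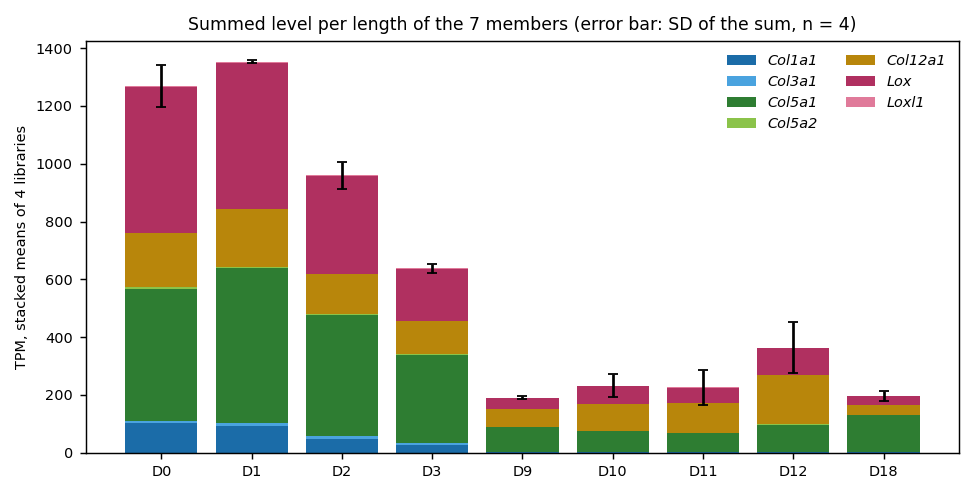
Stacked bars show the mean TPM (n = 4 libraries) of the 7 members on each day, and the error bar is the SD of the sum. The sum falls from 1269 TPM at D0 to 191 TPM at D9, reaches 363 TPM at D12 and is 197 TPM at D18, when Col5a1 makes up 64.7% of it.

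Over 9 days without doxycycline, all 7 members fell. The fall was 48.8-fold for Col1a1 and 10.6-fold for Lox as a ratio of mean CPM, and between 2.36-fold (Col12a1) and 5.20-fold (Loxl1) for the other members. Every member's 4 D9 libraries lay below its 4 D0 libraries, but the share of all rows so separated was not counted, here or for the other days compared below. Across all rows tested, 37.0% were called lower in this comparison, and the median log2 change was -0.02 over all rows and -1.99 over the 7 members.

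Col1a1, the main chain of type I collagen, was at 252, 234, 254 and 244 CPM in the D0 libraries and at 4.91, 6.67, 4.40 and 4.20 CPM in the D9 libraries. On the log2(CPM + 0.5) scale, the scale of every fold change and SE below, it fell by 5.49 (SE 0.20, adjusted p = 5.2e-22, limma). Col3a1, the chain of type III collagen, had 18.5, 19.3, 21.2 and 16.6 CPM at D0 and 5.54, 6.46, 3.97 and 4.38 CPM at D9. The groups were well apart but much closer than for Col1a1, and Col3a1 fell by 1.81 (SE 0.21, adjusted p = 4.0e-09).

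Col5a1, the main type V chain, had 1424, 1361, 1308 and 837 CPM at D0 and 285, 342, 266 and 253 CPM at D9. One D0 library, replicate 4, lay well below the other D0 libraries and still far above all of D9. Col5a1 fell by 2.08 (SE 0.13, adjusted p = 1.6e-15). Its partner chain Col5a2 had 9.06, 7.72, 7.87 and 6.64 CPM at D0 and 2.54, 3.5, 2.94 and 2.76 CPM at D9, a fall of 1.28 (SE 0.21, adjusted p = 1.6e-06). Col12a1 had 829, 863, 783 and 866 CPM at D0 and 370, 308, 367 and 369 CPM at D9. Both days were tight, and the fall of 1.24 (SE 0.22, adjusted p = 6.5e-06) was the smallest of the 7.

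Lox, the founding lysyl oxidase, had 946, 1011, 1014 and 1062 CPM at D0 and 93.9, 90.7, 102 and 94.8 CPM at D9. It fell by 3.40 (SE 0.23, adjusted p = 5.6e-15), with little spread on either day. Loxl1, which is best known for cross-linking elastin, had 6.41, 6.06, 6.11 and 5.46 CPM at D0 and 1.08, 1.05, 0.945 and 1.55 CPM at D9, a fall of 1.99 (SE 0.18, adjusted p = 7.7e-12). At D9 its level was 29 to 67 units per library, and fewer reads.

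**Figure D2:**
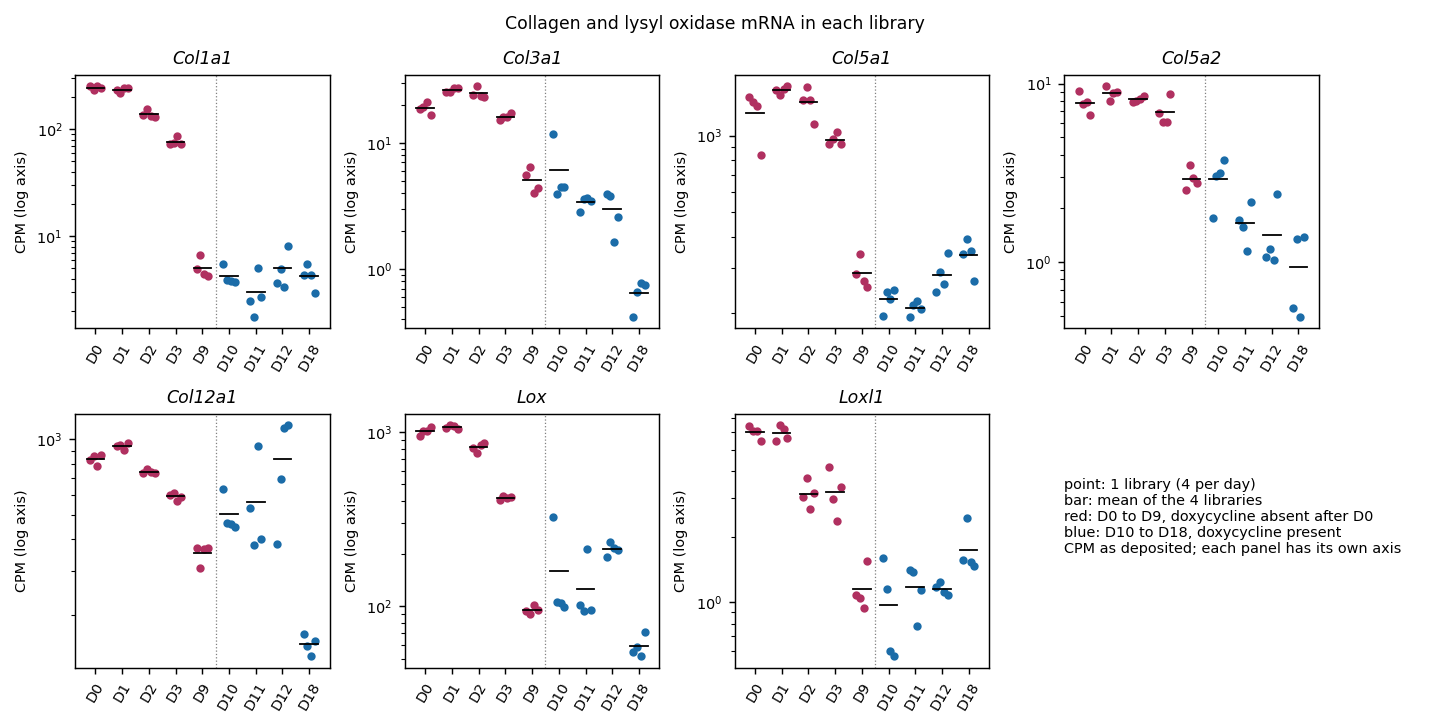
Each panel plots the CPM (log axis, scaled per panel) of 1 member in the 4 libraries of each day, with a bar at the mean; red marks D0 to D9 and blue D10 to D18. All 7 members are lower at D9 and at D18 than at D0, and Col12a1 and Lox are higher at D12 than at D9.

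Step by step, the members called were not always the same, and differences in timing between members were not tested. From D0 to D1 none of the 7 changed at adjusted p under 0.05, in a step that called 12.3% of all rows. At D1 every library had more Col3a1 (25.5, 25.4, 27.2 and 27.1 CPM), more Col5a1 (1507, 1450, 1527 and 1568 CPM) and more Col12a1 (940, 951, 909 and 967 CPM) than any D0 library. The log2 differences were 0.47 (SE 0.21, adjusted p = 0.155), 0.33 (SE 0.13, adjusted p = 0.108) and 0.17 (SE 0.22, adjusted p = 0.678). The share of all rows without overlap between D0 and D1 was not counted. With a fit of the D0 and D1 libraries alone, which leaves out the wider spread of later days, these 3 differences passed the test (adjusted p = 3.8e-05, 0.0272 and 4.7e-04). For Col3a1 the same held without the 2 libraries farthest from their days (adjusted p = 0.0226).

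From D1 to D2, a step with 41.6% of all rows called, 2 of the 7 members fell. Col1a1 went from 217 to 245 CPM at D1 to 130 to 155 CPM at D2 (-0.75, SE 0.20, adjusted p = 0.00331). Loxl1 went from 5.47 to 6.45 CPM to 2.67 to 3.71 CPM (-0.83, SE 0.18, adjusted p = 3.1e-04). For both genes the libraries did not overlap between these days, but the share of all rows without overlap was not counted. Lox (-0.38) and Col12a1 (-0.34) were lower in each D2 library than in any D1 library but missed the threshold (adjusted p = 0.180 and 0.214). Both passed it with the TPM table, with quantile normalization and with the D1 and D2 libraries alone, and Lox also without the 2 libraries farthest from their days (adjusted p = 0.0234). Col5a1 (-0.17, adjusted p = 0.334) passed under the same 3 alternatives (adjusted p = 0.0277, 0.00694 and 0.0194).

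From D2 to D3 (12.6% of all rows called), 3 of 7 members fell. Lox had 811, 756, 840 and 859 CPM at D2 and 409, 427, 416 and 425 CPM at D3 (-0.96, SE 0.23, adjusted p = 0.00288). Col1a1 fell by 0.85 (SE 0.20, adjusted p = 0.00358) and Col5a1 by 0.48 (SE 0.13, adjusted p = 0.0110). The Col5a1 call was lost without D2 replicate 2 (adjusted p = 0.0604). Col3a1 (-0.60, adjusted p = 0.0582) was called with the TPM table, a pseudocount of 1, the D2 and D3 libraries alone or without the 2 libraries farthest from their days. Loxl1 stood at 3.03, 3.71, 2.67 and 3.18 CPM at D2 and at 4.15, 2.96, 2.35 and 3.38 CPM at D3, so its libraries of these days overlapped throughout.

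All 7 members fell between D3 and D9, a span of 6 days in which 43.4% of all rows were called. The falls ranged from 0.75 for Col12a1 (SE 0.22, adjusted p = 0.00551) to 3.82 for Col1a1 (SE 0.20, adjusted p = 6.7e-16). No member's libraries overlapped, but the share of all rows without overlap was not counted. Taking the log2 change from D0 to D9 as 100%, the 4 D3 libraries had covered a mean of 39.4% for Col12a1, 41.9% for Loxl1, 37.2% for Lox and 30.5% for Col1a1. Col5a1 (15.6%), Col5a2 (12.8%) and Col3a1 (12.3%) had covered less. These shares are a description. The D3 value of Col5a2 ranged from -13% to 26.1% between libraries.

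The comparison of D3 with D0 was added after the values were seen. It called 5 of the 7 members, all lower, which is near the share of all rows called in either direction (63.0%). The number of calls alone thus does not set the members apart. The median log2 change was 0.03 over all rows and -0.49 over the members. Col1a1 (-1.68, SE 0.20, adjusted p = 1.3e-08), Lox (-1.26, SE 0.23, adjusted p = 1.2e-05) and Loxl1 (-0.83, SE 0.18, adjusted p = 1.3e-04) were clear of the threshold. Col5a1 (-0.32, adjusted p = 0.0327) and Col12a1 (-0.49, adjusted p = 0.0497) were near it. Leaving out any 1 library of D0 or D3 lost the Col12a1 call, and leaving out any of 6 of those 8 lost the Col5a1 call. Col3a1 (-0.22, adjusted p = 0.367) and Col5a2 (-0.16, adjusted p = 0.50) were not called, but Col3a1 was called lower with the TPM table (-0.43, adjusted p = 0.0367) and with the D0 and D3 libraries alone (adjusted p = 0.0207).

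By D18 no member was back at its D0 level. Between D9 and D18, when genes of dividing cells rose (a summed level over 6 genes of 112 to 123 CPM at D9 and 4660 to 5481 CPM at D18), 4 of the 7 members fell further, 1 rose and 2 were not called. In all, 66.1% of rows were called in this comparison, 32.5% of all rows as lower. The members' median log2 change was -0.70, against -0.00 over all rows.

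Col3a1 fell most, to 0.418, 0.656, 0.775 and 0.749 CPM at D18 (-2.27, SE 0.21, adjusted p = 3.5e-11). These values were 19 to 33 units per library, and fewer reads. Col5a2 came to 0.550, 1.34, 0.493 and 1.38 CPM (-1.31, SE 0.21, adjusted p = 1.3e-06). Its D18 libraries split into a lower pair (replicates 1 and 3) and a higher pair, both below all of D9. Col12a1 had 168, 151, 137 and 157 CPM at D18, below all D9 libraries (-1.20, SE 0.22, adjusted p = 1.3e-05). Lox had 54.8, 58.0, 51.7 and 71.1 CPM, also below all of D9 (-0.70, SE 0.23, adjusted p = 0.00738). With the TPM table the Lox difference was -0.34 and was not called (adjusted p = 0.146). That table puts the median of all rows at 0.34 in this comparison, and relative to it the Lox difference is close to that in CPM.

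Loxl1 was the member called higher, at 1.56, 2.42, 1.53 and 1.47 CPM at D18 (0.43, SE 0.18, adjusted p = 0.0317). Replicate 2 alone lay clearly above the D9 libraries, since the others fell under the highest D9 library or just over it. Without that library the difference was 0.30 (adjusted p = 0.156), and with quantile normalization it was -0.01 (adjusted p = 0.961). Without D9 replicate 1, 2 or 3 it was also lost (adjusted p = 0.0620, 0.0661 and 0.0913).

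Col1a1 stayed low, at 4.29, 5.45, 4.30 and 2.97 CPM at D18. The D18 and D9 libraries overlapped, and the log2 difference was -0.23 (SE 0.20, adjusted p = 0.330), although quantile normalization gave -0.59 (adjusted p = 0.00932). Col5a1 had 342, 392, 350 and 266 CPM at D18 and overlapped D9 (0.23, SE 0.13, adjusted p = 0.123). Its call depended on the scaling and on single libraries: it was called higher with the TPM table (0.59, adjusted p = 2.2e-04), with quantile normalization (0.52, adjusted p = 0.00121), without D9 replicate 2 (0.32, adjusted p = 0.0450) and without D18 replicate 4 (0.34, adjusted p = 0.0290). For D18 against D9, the TPM table moves the median of all rows to 0.34, and relative to it the TPM difference of Col5a1 is close to the CPM one. Quantile normalization moves that median to -0.13, and relative to it the Col5a1 difference is larger, not smaller.

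**Figure D3:**
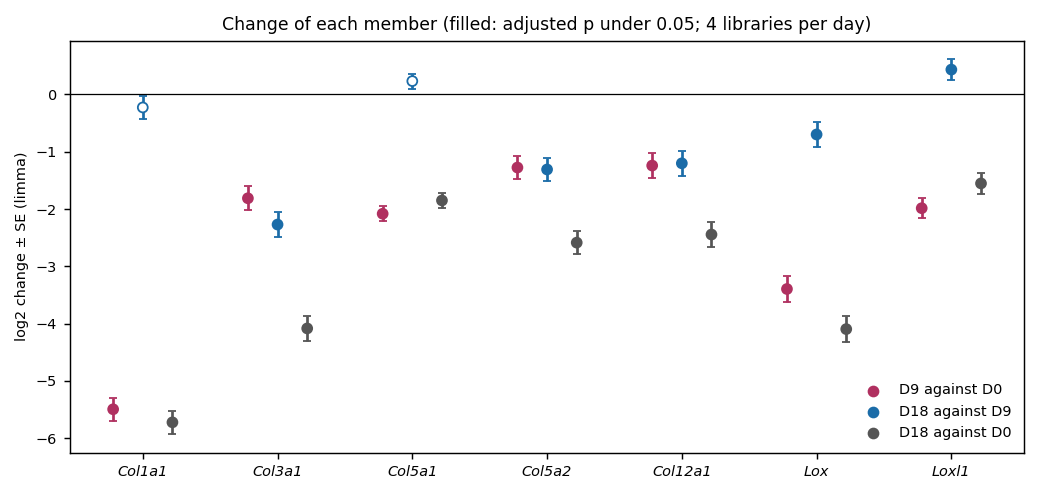
Points are limma log2 changes of the 7 members with their SE (4 libraries per day), filled where the adjusted p is under 0.05. All 7 are below 0 for D9 against D0 and for D18 against D0, whereas for D18 against D9 4 are called lower, Loxl1 is called higher, and Col1a1 and Col5a1 are open.

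Between D9 and D18 the path was not straight. From D9 to D10 no member was called, in a step that called 3.67% of all rows. Every D10 library had more Col12a1 than any D9 library (447 to 637 against 308 to 370 CPM), a difference of 0.50 (SE 0.22, adjusted p = 0.225). Every D10 library also had less Col5a1 (195 to 246 against 253 to 342 CPM), a difference of -0.33 (SE 0.13, adjusted p = 0.173). The share of all rows separated in this way between D9 and D10 was not counted. From D10 to D11 (25.6% called), Col3a1 (-0.64, SE 0.21, adjusted p = 0.0244) and Col5a2 (-0.65, SE 0.21, adjusted p = 0.0173) fell. Without D10 replicate 1, which had 11.7 CPM of Col3a1 where the other D10 libraries had 3.93 to 4.5, the Col3a1 difference was -0.31 (adjusted p = 0.191), and that call was also lost without D11 replicate 1 (adjusted p = 0.0726). The Col5a2 call was lost without D10 replicate 4 or D11 replicate 3 (adjusted p = 0.0777 and 0.0815), and neither call stood with the libraries of D10 and D11 alone (adjusted p = 0.176 and 0.0813). Col1a1 (-0.51, adjusted p = 0.0660) was called lower with quantile normalization, median-of-ratios scaling or DESeq2 and without D11 replicate 3 (adjusted p from 0.00356 to 0.0444).

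From D11 to D12 (40.0% of all rows called), 4 members rose. These were Lox (0.84, SE 0.23, adjusted p = 0.00359), Col1a1 (0.65, SE 0.20, adjusted p = 0.0109), Col5a1 (0.42, SE 0.13, adjusted p = 0.0111) and Col12a1 (0.54, SE 0.22, adjusted p = 0.0488). Col1a1 went from 2.47, 1.76, 5.08 and 2.72 CPM to 3.66, 4.89, 3.31 and 8.16 CPM, which overlap. Without D12 replicate 4, the highest for both genes, Col1a1 (0.41, adjusted p = 0.104) and Col5a1 (0.33, adjusted p = 0.0694) were not called. The Col1a1 call was also lost without D11 replicate 2 (adjusted p = 0.0741), and that of Col12a1 without D11 replicate 1, 2 or 4 or D12 replicate 3 or 4 (adjusted p from 0.0766 to 0.248). With the libraries of D11 and D12 alone, none of the 4 passed (adjusted p from 0.0625 for Lox to 0.393 for Col12a1).

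Set against D9, D12 showed 2 members higher and 2 lower, a comparison added after the values were seen. The 4 calls among 7 members lay near the share of all rows called (62.6%), so their number does not set the members apart. Lox was at 191, 232, 217 and 209 CPM at D12, above every D9 library (1.15, SE 0.23, adjusted p = 5.1e-05). Col12a1 was at 384, 697, 1112 and 1138 CPM, also above every D9 library (1.11, SE 0.22, adjusted p = 4.7e-05). Its mean of 833 CPM at D12 was 99.7% of the D0 mean, but the 4 libraries spread from well below to well above D0. Col3a1 (3.95, 3.77, 1.64 and 2.57 CPM, -0.72, SE 0.21, adjusted p = 0.00400) and Col5a2 (1.07, 1.19, 1.02 and 2.41 CPM, -0.88, SE 0.21, adjusted p = 3.8e-04) were lower. These 4 calls stood under every alternative run.

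From D12 to D18, when 49.0% of all rows were called, Col12a1 fell by 2.32 (SE 0.22, adjusted p = 4.5e-10), Lox by 1.85 (SE 0.23, adjusted p = 7.2e-08) and Col3a1 by 1.55 (SE 0.21, adjusted p = 4.9e-07). No D18 library of these 3 genes reached a D12 library. Loxl1 was called higher (0.42, SE 0.18, adjusted p = 0.0478), and that call was lost when any 1 of 7 of the 8 libraries was left out (adjusted p of 0.205 without D18 replicate 2), and with quantile normalization (0.29, adjusted p = 0.161). Col5a1 (0.25, adjusted p = 0.115) was called higher with the TPM table, quantile normalization, or without D12 replicate 4 or D18 replicate 4 (0.35 to 0.43). Col5a2 (-0.43, adjusted p = 0.0848) was called lower with quantile normalization, without the 2 libraries farthest from their days and without D18 replicate 2 or 4 (-0.57 to -0.50).

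Libraries of 1 day differed most at D10, D11 and D12, and Col12a1 differed between them together with some other genes and not with others. At D11 the Col12a1 values were 532, 379, 943 and 403 CPM in replicates 1 to 4. S100a4, a small calcium-binding protein gene used as a fibroblast marker, was at 117, 25.3, 118 and 29.5 CPM in the same libraries. Ctgf, a matricellular protein gene known as a target of TGF-beta and YAP, was at 222, 130, 480 and 139 CPM. The 2 libraries with more Col12a1, replicates 1 and 3, were thus the 2 with more S100a4 and Ctgf. They also had more of the fibroblast marker Vim (931, 575, 824 and 603 CPM in replicates 1 to 4). Their summed level of dividing cell genes was lower (733, 1688, 1038 and 1689 CPM). The fibroblast markers Fbln1 and Ddr2 did not follow, since those 2 libraries had the lower Fbln1 (5.09, 15.1, 8.64 and 15.4 CPM in replicates 1 to 4) and the lower Ddr2 (2.96, 6.04, 2.59 and 7.68 CPM). Myh6, a myosin heavy chain gene among the atrial muscle cell markers, was at 24408, 24423, 28973 and 25005 CPM, highest in the library with the most Col12a1. At D12, where Col12a1 was at 384, 697, 1112 and 1138 CPM, S100a4 was at 32.4, 89.4, 152 and 213 CPM and Ctgf at 114, 275, 882 and 716 CPM. Vim was at 441, 809, 1131 and 1209 CPM in these libraries. The dividing cell genes summed to 3560, 3122, 3458 and 3083 CPM, which did not follow the order of Col12a1. At D12 Myh6 was at 24449, 11017, 4599 and 4750 CPM, high where Col12a1 was low. Replicate 1 of D12 was lowest in Col12a1, S100a4 and Ctgf and highest in Myh6, but also highest in Fbln1 (43.8, against 32.2 to 34.2 CPM in the others), Thy1 (6.26, against 4.02 to 4.89 CPM) and Ddr2 (2.62, against 1.85 to 2.56 CPM), and the part of these differences in the Col12a1 result was not tested.

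Lox did not split the same way at D12, where its 4 libraries lay close together. It was high in D10 replicate 1 (325 CPM, against 98.6 to 105 CPM in the others) and in D11 replicate 3 (213 CPM, against 94.2 to 102 CPM). In D10 replicate 1, S100a4 was at 29.8 CPM and Ctgf at 128 CPM, near the other D10 libraries (26.0 to 27.1 CPM and 101 to 108 CPM), while Myh6 was at 60795 CPM (31532 to 34810 CPM in the others) and Mb, the muscle oxygen-binding protein gene, at 206 CPM (17.5 to 23.2 CPM). Mb was also high in D12 replicate 1, at 202 CPM (4.83 to 13.2 CPM in the others), where the D9 libraries had 30.5 to 34.9 CPM. D10 replicate 1 and D11 replicate 3 thus shared high Lox and high Col12a1 but not high S100a4.

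**Figure D4:**
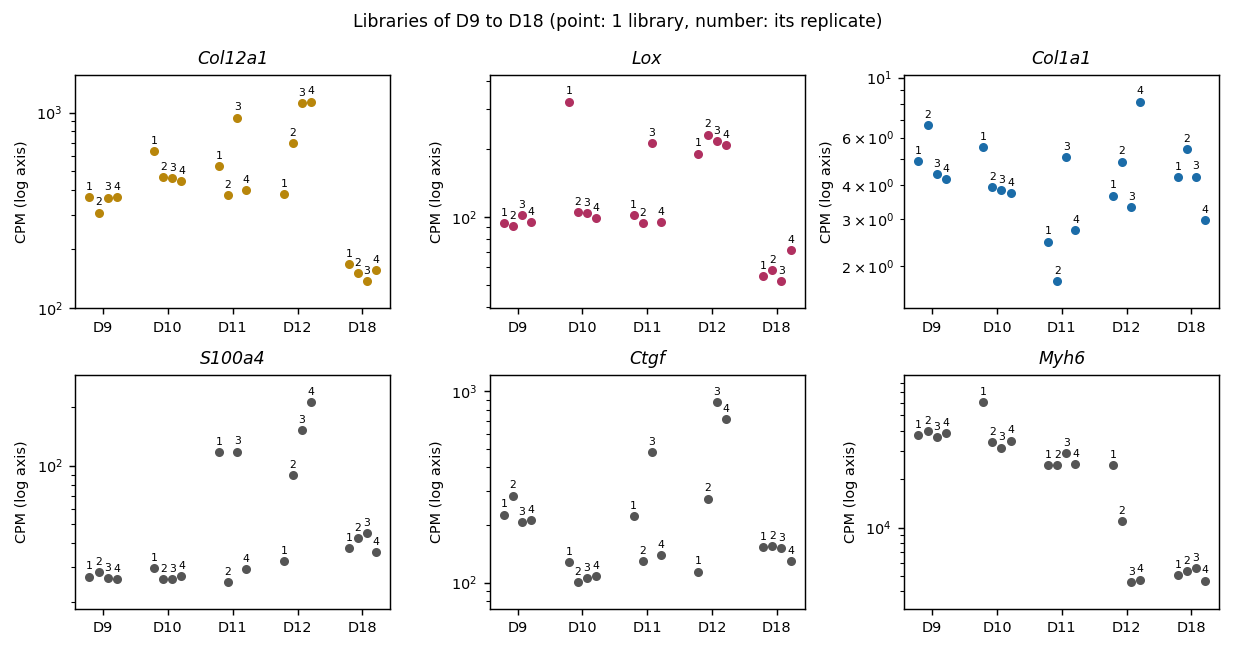
Each point is the CPM (log axis) of 1 library, numbered by replicate, at D9 to D18 for 3 members (top row) and for S100a4, Ctgf and Myh6 (bottom row). At D12, replicate 1 has the lowest Col12a1 (384 CPM) and S100a4 (32.4 CPM) and the highest Myh6 (24449 CPM), while its Lox (191 CPM) lies near that of the other libraries.

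At the end of the cycle all 7 members were lower than at its start. The D18 and D0 libraries of each member did not overlap, but the share of all rows without overlap was not counted. Among all rows, 23.2% were called lower in this comparison, and the median log2 change was 0.06 over all rows and -2.59 over the members. Col1a1 was at 1.73% of its D0 mean CPM (-5.72, SE 0.20, adjusted p = 1.4e-20), Col3a1 at 3.44% (-4.08, SE 0.21, adjusted p = 1.5e-16) and Lox at 5.84% (-4.10, SE 0.23, adjusted p = 5.9e-16). Col5a2 was at 12.0% (-2.59, SE 0.21, adjusted p = 3.4e-12) and Col12a1 at 18.3% (-2.45, SE 0.22, adjusted p = 4.5e-11). Col5a1, at 27.4% (-1.85, SE 0.13, adjusted p = 2.7e-13), and Loxl1, at 29.0% (-1.55, SE 0.18, adjusted p = 8.7e-09), kept the largest shares. The dividing cell genes, for comparison, had a summed level of 2701 to 2895 CPM at D0, below that of D18. The 3 comparisons of D0, D9 and D18 share libraries, so their values stand side by side and are not independent.

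Whether the first 3 days with doxycycline undid the first 3 days without it was asked by adding the 2 changes (D3 minus D0 plus D12 minus D9), which gives 0 where they cancel. For 4 of the 7 members the sum was called below 0, against 23.4% of all rows called in either direction. These were Col1a1 (-1.74, SE 0.29, adjusted p = 3.5e-05), Col5a2 (-1.05, SE 0.29, adjusted p = 0.00837), Col3a1 (-0.94, SE 0.30, adjusted p = 0.0215) and Loxl1 (-0.82, SE 0.25, adjusted p = 0.0161). For Col1a1 and Loxl1 the first change was a fall (-1.68 and -0.83) and the second was not called (-0.07 and 0.01). For Col3a1 and Col5a2 the first change was not called in the main test (-0.22 and -0.16). Their sums rest mostly on a fall from D9 to D12 (-0.72 and -0.88). The Col3a1 call was lost without D9 replicate 2 or D12 replicate 3 (adjusted p = 0.0541 and 0.0682). For Lox the sum was -0.12 (SE 0.32, adjusted p = 0.828) and for Col5a1 -0.34 (SE 0.19, adjusted p = 0.186), the latter called with quantile normalization (-0.61, adjusted p = 0.0202) and without D0 replicate 4 (-0.52, adjusted p = 0.0211). For Col12a1 it was 0.62 (SE 0.31, adjusted p = 0.142), and it was called above 0 at 0.95 without the 2 libraries farthest from their days (adjusted p = 0.00199).

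Ratios of 2 members within a library do not depend on how the library was scaled, apart from the pseudocount. For 6 pairs and 3 comparisons, 18 exact two-sided permutation tests of 4 against 4 libraries were run, and the smallest p such a test can give is 0.0286 (0.0343 after Benjamini-Hochberg adjustment over the 18). Of the 18, 15 reached that smallest value. Col3a1 relative to Col1a1 rose 12.8-fold from D0 to D9 and then fell 4.12-fold by D18. The log2 ratio was -3.67 ± 0.14 at D0, 0.01 ± 0.13 at D9 and -2.03 ± 0.43 at D18 (SD, n = 4). Col3a1 at D18 was close to the pseudocount, and the later fall was 5.84-fold with a pseudocount of 0.1 and 3.17-fold with 1. For the same reason the log2 change of Col3a1 itself was -2.79 with 0.1 and -1.87 with 1 for D18 against D9, and -4.69 and -3.59 for D18 against D0. Col5a1 relative to Col1a1 rose in both phases, 10.6-fold from D0 to D9 and 1.38-fold from D9 to D18, so that the D18 ratio was 14.6-fold that of D0.

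Within type V collagen, Col5a2 relative to Col5a1 rose 1.75-fold from D0 to D9 and fell 2.91-fold from D9 to D18. With a pseudocount of 0.1 these were 1.62-fold and 3.72-fold, and with 1 they were 1.89-fold and 2.43-fold. D18 against D0 gave a log2 difference of -0.74 that missed the threshold (exact permutation p = 0.114, adjusted 0.121), but with a pseudocount of 0.1 it was -1.20 and was called (exact permutation, adjusted p = 0.0321). Col12a1 relative to Col1a1 rose 19.0-fold by D9, with a later difference of -0.97 that also missed it (exact permutation p = 0.0571, adjusted 0.0643). Lox relative to Col1a1 rose 4.28-fold by D9, and its difference from D9 to D18 was -0.47 (exact permutation p = 0.171, adjusted 0.171). Loxl1 relative to Lox rose in both phases, 2.66-fold and 2.19-fold, to 5.82-fold the D0 ratio at D18. With a pseudocount of 0.1 these were 2.14-fold, 2.38-fold and 5.10-fold, and with 1 they were 3.21-fold, 2.05-fold and 6.59-fold.

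The other genes of the collagen pathway were read from lists named by role, and their counts are set against all rows (-0.02, -0.00 and 0.06 as median log2 change for D9 against D0, D18 against D9 and D18 against D0). The share of all rows called lower in these comparisons was 37.0%, 32.5% and 23.2%. By D9, the shares called lower of collagen cleavage and uptake genes (44.4%) and of factors linked to collagen transcription (42.3%) lay near that of all rows. So did the share of the factors linked to collagen transcription at D18 against D0 (23.1%). Of the other lysyl oxidases, Loxl2 and Loxl3 fell by D9 and rose again by D18, and Loxl4 was called in neither. Loxl2, which cross-links type IV collagen among other substrates, had a mean of 550 CPM at D0, 47.3 CPM at D9 and 163 CPM at D18 (-3.53, then 1.77, SE 0.16 for both, adjusted p = 1.0e-19 and 1.0e-11). Loxl3 had 25.9, 3.3 and 8.64 CPM (-2.82, then 1.29, SE 0.13, adjusted p = 1.0e-19 and 8.6e-11). Both were still lower at D18 than at D0 (-1.76 and -1.52, adjusted p = 5.6e-11 and 8.6e-12). Their rise from D9 to D18 stands beside the fall of Lox over the same days; the difference between these genes was not tested.

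Of 6 other fibrillar chains, all tested, 3 fell and 1 rose by D9, and 3 were lower and 1 higher at D18 than at D0 (medians -0.68 and -0.63). Col5a3, the third type V chain, had 13.1 CPM at D0, 0.744 CPM at D9 and 2.66 CPM at D18 (-3.46, then 1.36, SE 0.19, adjusted p = 2.4e-17 and 1.3e-07). Col11a1, a chain of type XI collagen that resembles type V, had 162, 48.5 and 32.0 CPM and fell in both phases (-1.73 and -0.59, SE 0.12, adjusted p = 2.0e-14 and 6.8e-05). Of 9 other fibril-associated collagens, 2 were tested. Col16a1 went from 29.8 to 4.33 CPM by D9 (-2.60, SE 0.24, adjusted p = 1.3e-11) and was at 5.09 CPM at D18. Col20a1 rose by D9 (0.99, SE 0.19, adjusted p = 2.3e-05).

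Collagens that build networks, microfibrils or membrane anchors moved both ways. Of 23, 16 were tested: 9 fell and 3 rose by D9 (median -0.52), 7 fell and 2 rose from D9 to D18 (median -0.20), and 12 were lower and 2 higher at D18 than at D0 (median -1.08). Col8a1 had 53.1, 4.99 and 4.40 CPM and Col8a2 89.5, 6.25 and 44.8 CPM at D0, D9 and D18. Both chains of type VIII collagen fell by D9 (-3.29, SE 0.20, adjusted p = 4.2e-16, and -3.73, SE 0.17, adjusted p = 1.0e-19), and after that only Col8a2 was called higher (2.74, SE 0.17, adjusted p = 6.5e-16, against -0.16 for Col8a1). Col4a6, of basement membrane, rose by D9 (1.85, SE 0.15, adjusted p = 6.2e-13).

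Enzymes and chaperones that prepare collagen chains in the endoplasmic reticulum mostly fell and stayed low. Of 20, 19 were tested; 14 fell and 3 rose by D9 (median -0.81), and at D18 17 were lower and 0 higher than at D0 (median -1.05). Plod2, a lysyl hydroxylase whose product favours stable cross-links, had 1211 CPM at D0, 342 CPM at D9 and 404 CPM at D18 (-1.82 by D9, SE 0.08, adjusted p = 1.8e-20). P4ha3, a subunit of prolyl hydroxylase, had 40.0, 10.9 and 12.4 CPM (-1.84, SE 0.16, adjusted p = 6.1e-12). P3h2, a prolyl 3-hydroxylase, had the largest fall of the list from D0 to D18 (-2.72, SE 0.22, adjusted p = 4.1e-12). From D9 to D18 the list split into 5 higher and 9 lower (median -0.15, or 0.21 with the TPM table, which puts the median of all rows at 0.34).

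Among 10 genes of procollagen export, 8 were tested, of which 5 fell and 2 rose by D9 and 6 were lower and 1 higher at D18 than at D0 (medians -0.27 and -0.44). Creb3l1, a transcription factor of the endoplasmic reticulum known to drive Col1a1 in bone, had 53.6, 4.64 and 7.65 CPM (-3.40 by D9, SE 0.35, adjusted p = 1.9e-10). Its relative Creb3l2 went the other way, rising by 1.42 to D9 and falling by 1.88 to D18 (SE 0.11, adjusted p = 4.4e-13 and 3.4e-16). Of 8 procollagen processing genes, 5 were tested. By D9, 4 fell and 1 rose, and at D18 all 5 were lower than at D0 (medians -2.32 and -2.40). Adamts2, which removes the amino-terminal propeptides, had 41.9, 8.05 and 4.82 CPM and was lower at D18 than at D0 by -2.99 (SE 0.13, adjusted p = 1.0e-18). Pcolce, an enhancer of carboxy-terminal processing, rose slightly by D9 (0.26, SE 0.09, adjusted p = 0.0118) and then fell (-1.42, SE 0.09, adjusted p = 2.4e-15).

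Of 20 proteoglycans and glycoproteins that shape fibrils, 13 were tested; 7 fell and 3 rose by D9, and 11 were lower and 0 higher at D18 than at D0 (medians -1.01 and -1.19). Thbs1 had 1000, 226 and 113 CPM (-2.14 by D9, SE 0.46, adjusted p = 1.1e-04). Of 15 genes of collagen cleavage and uptake, 9 were tested, with 4 lower and 3 higher by D9 and 5 lower and 1 higher at D18 than at D0 (medians -0.20 and -1.15). Mrc2, an endocytic collagen receptor, fell by 2.49 (SE 0.32, adjusted p = 2.1e-08), whereas Mmp2, a gelatinase, rose by 1.25 (SE 0.19, adjusted p = 6.1e-07) from D0 to D9. Of 9 collagen receptors, 6 were tested, with 4 lower and 1 higher by D9 and 4 lower and 0 higher at D18 than at D0 (medians -0.61 and -1.11). Itga11, an integrin subunit that binds fibrillar collagen, had 123, 25.4 and 25.8 CPM (-2.26 by D9, SE 0.20, adjusted p = 5.0e-12).

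Factors linked to collagen transcription did not move in one direction. Of 31, 26 were tested; 11 fell and 11 rose by D9 (median -0.03), 9 fell and 10 rose from D9 to D18 (median -0.12), and 6 were lower and 9 higher at D18 than at D0 (median 0.21). Tgfb1, a ligand that raises collagen transcription in many cells, had 36.5, 11.3 and 44.1 CPM (-1.66, then 1.93, SE 0.14, adjusted p = 2.6e-12 and 7.9e-14). Tgfbr2, a receptor for it, rose by D9 (1.90, SE 0.13, adjusted p = 1.7e-14). Ctgf was lower at D18 than at D0 (-1.87, SE 0.35, adjusted p = 4.5e-05). At D18 Tgfb1 was not called against D0 (0.27, SE 0.14), while all 7 members were lower.

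The fibroblast markers gave 6 tested genes, all lower at D9 than at D0, of which 2 rose and 2 fell from D9 to D18. Fbln1 had 129, 4.28 and 128 CPM and Thy1 16.9, 0.731 and 5.83 CPM at D0, D9 and D18. From D9 to D18, Fbln1 rose by 4.75 (SE 0.17, adjusted p = 1.9e-22) and Thy1 by 2.35 (SE 0.13, adjusted p = 8.1e-17), whereas Ddr2, a collagen receptor, fell by 0.97 (SE 0.19, adjusted p = 3.3e-05) and Vim by 0.85 (SE 0.18, adjusted p = 1.5e-04). Over the same days Col3a1 and Lox fell and Col1a1 was not called; the differences between these genes were not tested. Markers of other cell types moved as well. All 6 smooth muscle markers were listed, with a summed level of 9521 to 9872 CPM at D0, 18799 to 22152 CPM at D9 and 7699 to 8892 CPM at D18. Most of that sum came from Acta2 and Tagln, the 2 that rose by D9 (1.09 and 1.06). Smtn (-2.05) and Cnn1 (-0.53) fell, and the other 2 were not called. Of 6 epicardial markers, 3 were listed, at a sum of 205 to 218, 200 to 214 and 156 to 170 CPM on these days. Of these, Upk3b had means of 54.4, 9.92 and 12.7 CPM and was lower at D18 than at D0 (-2.06, SE 0.12, adjusted p = 1.8e-15). Of 7 macrophage markers, 2 were listed, at 5.1 to 6.39 CPM at D0 and at or below 1.13 CPM at D9 and D18. Cd14 made up most of that sum at D0 (mean 4.5 CPM; -2.28 for D18 against D0, SE 0.20, adjusted p = 4.4e-11). Of 7 endothelial markers, 2 were listed, at 16.4 to 21.8 CPM at D0, 249 to 287 CPM at D9 and 186 to 208 CPM at D18. Kdr made up nearly all of that sum (means of 18.8, 264 and 194 CPM), and the other marker was not called for D9 against D0. The part of other cell types in the members' levels was not tested.

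**Figure D5:**
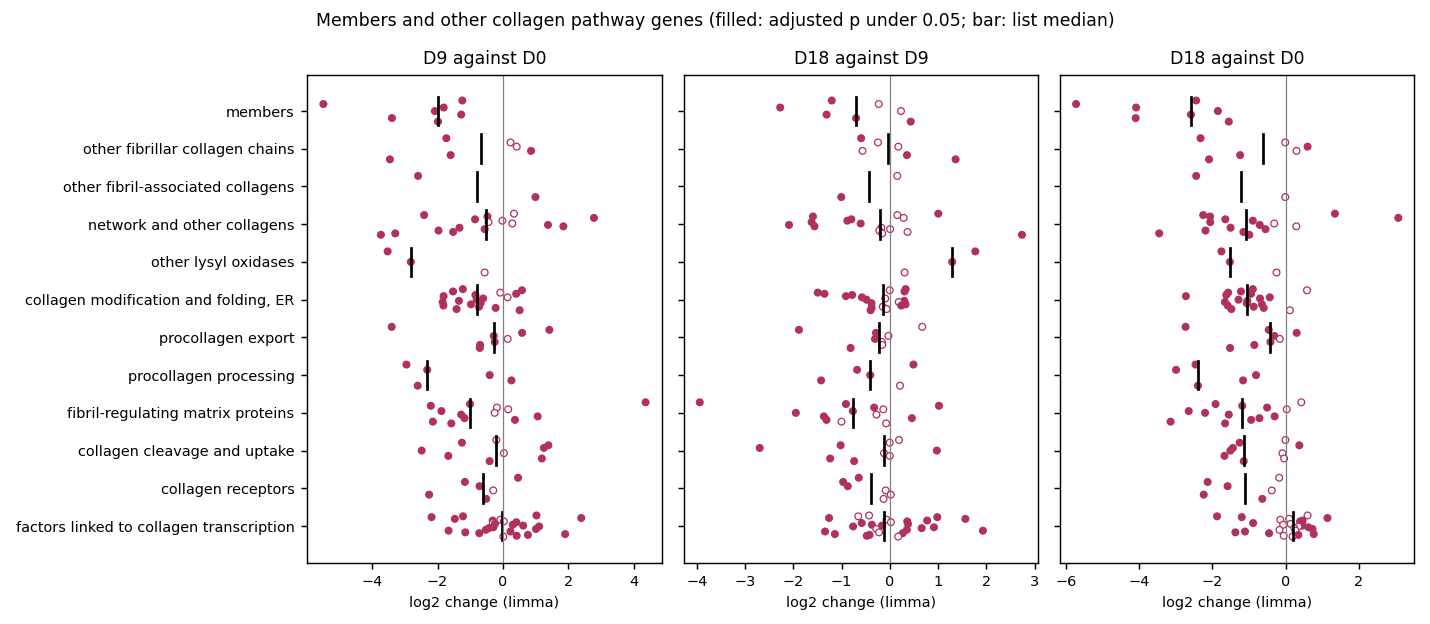
Each point is the limma log2 change of 1 tested gene, filled where the adjusted p is under 0.05, with a bar at the median of its list, for the members and 11 lists of pathway genes. The medians of the members are -1.99, -0.70 and -2.59 in the 3 comparisons, and the other lysyl oxidases change from a median of -2.82 to 1.29 between the first 2.

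Over the 36 libraries the members' log2 levels correlated with each other between r = 0.45 (Col12a1 and Loxl1) and r = 0.98 (Col1a1 and Col5a1). Days and libraries are shared by all genes, so these values describe a common time course. The genes most like the mean of the scaled members were Adamts2 (r = 0.97), Emilin2 (0.97), Cdc42ep2 (0.96), Tmed10 (0.96), Pgm2 (0.96), Col11a1 (0.96), Olfm1 (0.96), C1qtnf1 (0.96), Casc4 (0.96) and Sec14l1 (0.96), each over 36 libraries. For single members the first 3 were Sec14l1, Emilin2 and Myo7a for Col1a1 (r = 0.98 each), Bgn, Rcn1 and Lrp4 for Col3a1 (0.97, 0.97 and 0.95), and Col1a1, Tlr5 and Col16a1 for Col5a1 (0.98, 0.98 and 0.97). They were Tnc, Gsn and P3h1 for Col5a2 (0.95 each), Golim4, P4ha1 and Ltbp1 for Col12a1 (0.95, 0.95 and 0.94), Olfm1, Cdc42ep2 and Calu for Lox (0.96 each) and Myo7a, Gas7 and Nectin2 for Loxl1 (0.94 each). Bgn encodes biglycan, a proteoglycan that binds fibrils, and P4ha1 and P3h1 encode enzymes that hydroxylate collagen prolines.

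Of the 8 genes, 4 had an entry in a RefSeq table of promoters of the GRCr8 build, a later build than that of the expression tables. The 250 bases before the start of Col5a2 and Loxl1 are shown for a member called lower at D18 than at D9 and for the member called higher, a call that rested on single libraries and on the scaling. Col5a2 lies at chr9:55090152-55090401 and Loxl1 at chr8:67612225-67612474, both on the minus strand and printed 5′ to 3′. Capitals mark matches to CAGACA, a sequence that Smad proteins can bind, and to CATTCC, the core of TEAD sites.
Col5a2: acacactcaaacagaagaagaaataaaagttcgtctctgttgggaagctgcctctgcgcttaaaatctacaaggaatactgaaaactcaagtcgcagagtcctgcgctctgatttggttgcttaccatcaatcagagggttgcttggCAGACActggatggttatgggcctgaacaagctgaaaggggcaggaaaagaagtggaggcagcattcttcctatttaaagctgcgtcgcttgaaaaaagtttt
Loxl1: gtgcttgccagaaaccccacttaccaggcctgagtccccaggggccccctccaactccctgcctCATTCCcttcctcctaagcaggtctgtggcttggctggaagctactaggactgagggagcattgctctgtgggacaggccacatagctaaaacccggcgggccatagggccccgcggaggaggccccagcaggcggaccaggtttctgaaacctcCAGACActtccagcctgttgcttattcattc

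Both strands were searched for 5 motifs that do not overlap each other: CCAAT (bound by NF-Y), TATAAA (the TATA box), GGGCGG (bound by Sp1), CAGACA and CATTCC. In Col5a2, CAGACA begins 103 bases before the start, and in Loxl1 31 bases before it, on the strand of the gene in both. The match to CATTCC begins 186 bases before the start of Loxl1. Of all 33469 promoters in the table, the same 250 bases hold CAGACA in 17.2%, CATTCC in 12.1%, CCAAT in 34.0%, TATAAA in 12.9% and GGGCGG in 30.5%. No letters of the last 3 motifs were found in these 2 windows, which says nothing of the factors that bind them.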

How the data were processed

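RNA of iAM-1 cells was enriched for poly(A), made into directional libraries and sequenced in pairs, per the labels' protocols. The submitters' processing notes name Rnor 6.0 and edgeR 3.26.8, without a role; aligner and read counter: not given in the sources used here. Deposited by the authors were CPM values, treated here as a signal. Their columns sum to 868992 to 1136460, so their denominator was not the total of the listed genes. Each value was divided by the unit of its library (100% of values of up to 20 units were whole within 0.1 unit). The members' low values were odd numbers of units, so these counts are not reads. Every listed value was above 0 in every library, but this does not show that each row had reads there. The lowest value, 0.0105 CPM, was equal to the smallest unit, and a read was more than a unit. The deposited TPM table, TPM per the file headers, served for levels between genes. The planned design called the first table CPM, and its test was kept.

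The main test was limma 3.58.1 (R 4.3.3; trended empirical Bayes) on log2(CPM + 0.5), 12492 rows that reached 1 CPM in 4 or more libraries, all 36 libraries in 1 fit, with Benjamini-Hochberg adjustment over all rows and a threshold of 0.05. Each gene has 1 spread over all days, although D10 to D12 spread more. edgeR 4.0.16 (quasi-likelihood) and DESeq2 1.42.0 were alternatives, run on the counts of units as if they were reads. Permutation tests used SciPy 1.17.1. A planned ratio with Col1a2 could not be computed. The fitting was tested on simulated data. Between 2 libraries of a day, the counts of units gave a lowest mean chi-square of 3.86. Reads, being fewer, would give a lower value, so agreement within sampling noise was not settled. 1 D1 column matches no single D1 sample and was taken as an unnumbered D1 library.

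Groups are the labelled days. The genes, lists and comparisons were chosen with earlier results of these data known. All members are named; of each list, genes come from the 2 largest rises and 2 largest falls among called genes in the 3 comparisons of D0, D9 and D18, plus Ctgf, S100a4, Vim, Myh6, Mb, Pdgfra, Postn, Col8a1 and Loxl4, named for the libraries or contrast they describe. Promoter windows of 2 further matched members were left out, since one starts inside its annotated gene and the other gene was not analysed.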

Additional observations from a re-analysis of the deposited data

Results flagged for a closer look

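In 10 of 63 groups of 4 libraries (7 members on 9 days), 1 library lay far enough from the others to be marked by Dixon's ratio, where chance marks about 1 group in 20. D10 replicate 1 accounted for 4: Lox at 325 CPM (98.6 to 105 in the others), Col12a1 at 637 CPM (447 to 466), Col3a1 at 11.7 CPM (3.93 to 4.5) and Col1a1 at 5.55 CPM (3.74 to 3.93). Lox was also marked in D11 replicate 3, at 213 CPM (94.2 to 102). The remaining 5 were Col1a1 in D3 replicate 3 at 87.4 CPM (72.6 to 74.0), Col3a1 in D2 replicate 2 at 28.2 CPM (23.2 to 23.8), Col5a2 in D12 replicate 4 at 2.41 CPM (1.02 to 1.19), Col12a1 in D9 replicate 2 at 308 CPM (367 to 370) and Loxl1 in D18 replicate 2 at 2.42 CPM (1.47 to 1.56).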

How the results depend on the processing

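All 7 members stayed lower at D9 and at D18 than at D0, and called, under each alternative run. The number called between D9 and D18 (5) was 5 or 6 under the other settings and 4 to 6 with 1 library left out. With 1 library left out, it was 3 to 4 (5 with all) for D3 against D0, 3 to 5 (4 with all) for the sum of the 2 early changes, 4 throughout for D12 against D9 and 19 to 24 (22 with all) of 56 for the steps. Loxl1 at D18 against D9 reversed to -0.0102 with quantile normalization. Of 98 member changes, a call or an uncalled sign changed in 12 with the TPM table, 17 with quantile normalization, 16 with only the days compared, 12 without the 2 libraries farthest from their days (chosen after seeing the data) and 1 to 3 with edgeR, DESeq2, median-of-ratios scaling, other pseudocounts or no filter; the cause was not tested. With the TPM table, 5 list medians between D9 and D18 turned from below to above 0, as the median of all rows moved. The replicate numbers did not pair the libraries (correlations of -0.156 to 0.251); with a replicate block over 35 libraries, 21 of 56 steps were called, and 20 without the block in the same libraries. Members at about 1 CPM rest on as few as 19 units a library, and so on fewer than 19 reads.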
